A study of Magallana angulata with 8 samples.

Results

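Metallothioneins are small proteins rich in cysteine that bind copper, zinc and cadmium ions. In animals their genes are classically switched on by metals through metal regulatory transcription factor 1, and in bivalves the proteins are a widely used sign of metal exposure. All 5 genes that carry the word metallothionein in the annotation of the deposited table, out of 25647 genes, are described here in the gills, the filtering and respiratory organ, and in the mantle, the tissue that lays down the shell. They were OYG_10021194_10012460, OYG_10012042_10029507, OYG_10021196_10007768, OYG_10000066_10007768 and OYG_10003519_10029507.

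The 8 libraries came from adult Fujian oysters (*Crassostrea angulata*), 9 months old and from 1 farm, and the study asked how gene expression differs with Cu body concentration. Exposed oysters (G2 for gills, M2 for mantle) were kept in tanks for 30 days in seawater with CuCl2 at 30 µg/L Cu, fed algal powder. Unexposed oysters (G1, M1) were dissected on collection from the farm without added Cu, so the exposure and the keeping in tanks cannot be told apart. In each group 60 oysters were measured, and the 6 with the highest Cu (H) and the 6 with the lowest Cu (L) were pooled into 1 library for each tissue. Each condition is therefore 1 library (G2-H, G2-L, G1-H, G1-L, M2-H, M2-L, M1-H and M1-L), and no condition has a replicate.

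The authors deposited RPKM values, reads per kilobase of gene model, scaled to the depth of the library. Whole reads were recovered from them for all of the 25181 genes that had any. The library depths inferred in this step were 2015375 to 2589524 reads, and the recovered reads made up at least 99.88% of each. By cilia genes of gill epithelium the tissue labels held: 39 of the 40 that passed the filter were higher in gills. The sum over all 45 was 3192 to 4860 RPKM in gill libraries against 1073 to 1360 RPKM in mantle libraries. G2-L nonetheless had 20.8 RPKM of a tyrosinase-like gene (OYG_10026226_10034033), against 0 in the other gill libraries and 32.2 to 148 RPKM in mantle. Paramyosin (OYG_10001653_10036282) had 397 RPKM in G2-L, against 129 to 169 RPKM in the other gill libraries and 662 to 1830 RPKM in mantle. Chitin synthase 1 (OYG_10010453_10032983) was not higher in G2-L (334 RPKM) than in G1-L (426 RPKM). The part of mantle tissue in G2-L was not tested. M2-L stood apart, with a median log2(RPKM + 0.1) of 2.84 against 3.25 to 3.44 in the other libraries, and with 33.1% of its reads in its 100 most abundant genes. In such pooled tissue, fewer cells of a type and less RNA per cell cannot be told apart.

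The 5 genes differed widely in abundance. OYG_10012042_10029507 and OYG_10021194_10012460 were the major ones, with a mean over the 8 libraries of 163 and 159 RPKM, which placed them 631st and 651st in mean RPKM among all genes. OYG_10021196_10007768 averaged 49.2 RPKM, OYG_10003519_10029507 averaged 18.4 RPKM and OYG_10000066_10007768 averaged 10.7 RPKM. Their coding lengths were 387, 324, 324, 414 and 324 nt in that order. All 5 passed the filter of a mean of at least 1 RPKM, but OYG_10003519_10029507 rested on 142 reads and OYG_10000066_10007768 on 65 reads in all 8 libraries together. Reads were counted by the authors only where they matched unambiguously, so reads shared between near-identical family members may have been lost or split.

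The summed metallothionein level was higher in every exposed library than in any unexposed one. In gills the sum was 322 RPKM in G2-H and 509 RPKM in G2-L, against 119 RPKM in G1-H and 147 RPKM in G1-L. In mantle it was 688 RPKM in M2-H and 1090 RPKM in M2-L, against 152 RPKM in M1-H and 173 RPKM in M1-L. The exposed libraries averaged 652 ± 328 RPKM and the unexposed libraries 148 ± 22.1 RPKM (SD, n = 4 libraries each). Over the 4 pairs of libraries that differ only in exposure, the mean log2 ratio was 2.01 ± 0.53 (SD, n = 4 pairs), a 4.04-fold higher level, with single pairs between 2.70-fold and 6.30-fold. Without M2-L the mean log2 ratio was 1.80, over 3 pairs. High-Cu libraries had a lower sum than low-Cu libraries in all 4 pairs, with a mean log2 ratio of -0.46 ± 0.24 (SD, n = 4 pairs). The log2 ratio was -0.66 in both exposed pairs, but -0.30 in unexposed gills and -0.19 in unexposed mantle. Those unexposed values rested on few reads, 99 in G1-H against 106 in G1-L and 122 in M1-H against 127 in M1-L. This sum adds genes of opposite direction: the log2 ratio of the summed metallothionein RPKM, high over low Cu, was -0.0159 without OYG_10021194_10012460 and -1.39 without OYG_10012042_10029507, and without OYG_10012042_10029507 the sum in unexposed mantle was 93.2 RPKM in M1-H and 80.9 RPKM in M1-L. No p-value is given for the sum, since its members were chosen with these data known.

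Of 5 cell type marker lists (cilia, shell-forming mantle, muscle, gonad and hemocyte genes), the gonad list also had a higher sum in every exposed library than in any unexposed one. Its 6 annotated genes summed to 61.2 to 73.1 RPKM in exposed libraries and 34.1 to 56.0 RPKM in unexposed ones. Most of that sum was 1 Putative vitellogenin receptor gene (OYG_10017985_10004633), with 52.8 to 65.7 RPKM in exposed and 32.9 to 46.4 RPKM in unexposed libraries, and none of the other 5 genes separated the groups. The yolk protein genes in the list were low, with Vitellogenin-6 at 0.472 to 5.93 RPKM over the 8 libraries and Vitellogenin (OYG_10006231_10001172) at 0 in 5 of them. The list does not hold every yolk gene: the paper reports a further vitellogenin gene, higher in high-Cu mantle, that the list words did not catch. The part of gonad tissue in the metallothionein values was not tested.

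**Figure D1:**
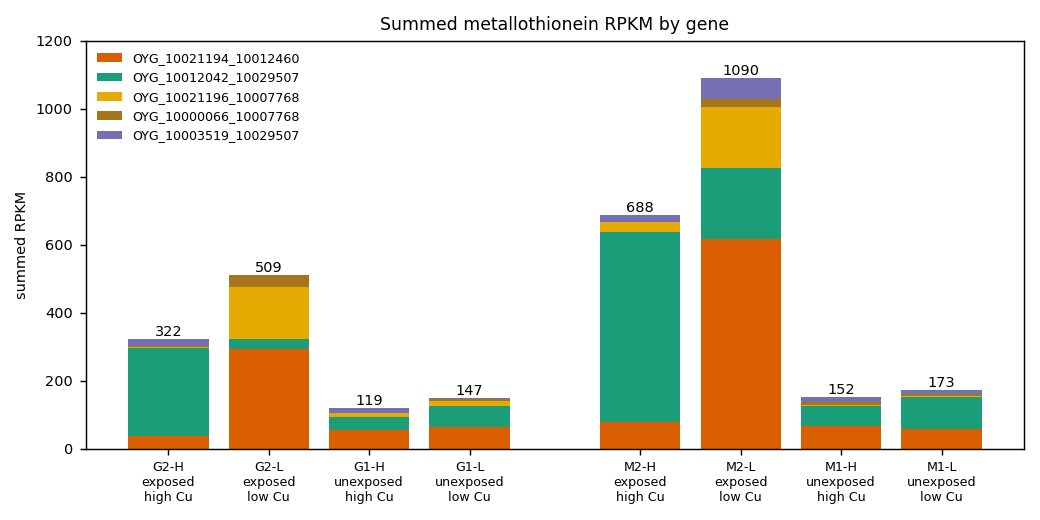
Stacked bars give the summed RPKM of the 5 metallothionein genes (vertical axis) in each of the 8 libraries (G, gill, M, mantle), split by gene, with the total above each bar. The exposed libraries total 322 to 1090 RPKM and the unexposed ones 119 to 173 RPKM, and the green gene fills most of the exposed high-Cu bars while the orange and yellow genes fill most of the exposed low-Cu bars.

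The gene that made up most of this level was not the same in the 2 Cu classes of exposed oysters. In exposed high-Cu oysters OYG_10012042_10029507 made up 79.9% of the summed RPKM in G2-H and 81.0% in M2-H. In exposed low-Cu oysters the same gene made up 5.98% in G2-L and 19.2% in M2-L, and OYG_10021194_10012460 made up 57.6% and 56.5%. In unexposed oysters the 2 genes were closer, with 31.6% to 53.3% of the sum for the first and 33.6% to 46.6% for the second. These shares are of RPKM values and so are corrected for length.

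OYG_10021194_10012460 was high in exposed low-Cu oysters of both tissues and in no other library. In gills it stood at 38.1 RPKM (32 reads) in G2-H and 293 RPKM (234 reads) in G2-L, against 55.6 RPKM (42 reads) in G1-H and 64.8 RPKM (43 reads) in G1-L. In mantle it stood at 78.9 RPKM (62 reads) in M2-H and 616 RPKM (458 reads) in M2-L, against 67.2 RPKM (49 reads) in M1-H and 58.2 RPKM (38 reads) in M1-L. From the third highest library (M2-H) down, the 95% Poisson counting intervals of neighbouring libraries overlapped, and only M2-L and G2-L stood clear of their next lower neighbours. Exposed and unexposed libraries overlapped because G2-H was the lowest of the 8.

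Among low-Cu oysters, OYG_10021194_10012460 was 4.53-fold higher in G2-L than in G1-L (Fisher's exact test, adjusted p = 2.07e-24) and 10.6-fold higher in M2-L than in M1-L (Fisher's exact test, adjusted p = 3.52e-79). Among high-Cu oysters its log2 ratio was -0.54 for G2-H over G1-H (95% interval -1.26 to 0.15) and 0.23 for M2-H over M1-H (-0.33 to 0.80), neither past the test. Within exposed oysters the high-Cu library was lower, 7.69-fold for G2-H against G2-L and 7.81-fold for M2-H against M2-L, so the gill pair, which does not hold M2-L, differed as much as the mantle pair. Fisher's test here compares the reads of 2 libraries and not the conditions, and calls need a 2-fold difference and an adjusted p of at most 0.001.

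OYG_10012042_10029507 showed another order, with the exposed high-Cu libraries at the top. In gills it stood at 257 RPKM (258 reads) in G2-H and 30.4 RPKM (29 reads) in G2-L, against 37.7 RPKM (34 reads) in G1-H and 59.3 RPKM (47 reads) in G1-L. In mantle it stood at 557 RPKM (523 reads) in M2-H and 209 RPKM (186 reads) in M2-L, against 58.5 RPKM (51 reads) in M1-H and 92.3 RPKM (72 reads) in M1-L. M2-H was clear of G2-H, G2-H and M2-L overlapped in their counting intervals, and M2-L was clear of the rest. G2-L was thus the lowest library for this gene, while M2-L was the third highest.

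Exposure went with a 6.83-fold higher level of OYG_10012042_10029507 in G2-H than in G1-H and a 9.52-fold higher level in M2-H than in M1-H (Fisher's exact test, adjusted p = 7.23e-37 and 4.42e-90). Among low-Cu oysters M2-L was 2.27-fold higher than M1-L (Fisher's exact test, adjusted p = 9.37e-09), whereas the log2 ratio of G2-L over G1-L was -0.96 (95% interval -1.68 to -0.26), under 2-fold. High Cu went with a 8.46-fold higher level in exposed gills and a 2.66-fold higher level in exposed mantle. In unexposed oysters the log2 ratio of high over low Cu was -0.65 in gills (-1.33 to 0.01) and -0.66 in mantle (-1.20 to -0.12), of the opposite sign and not called.

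**Figure D2:**
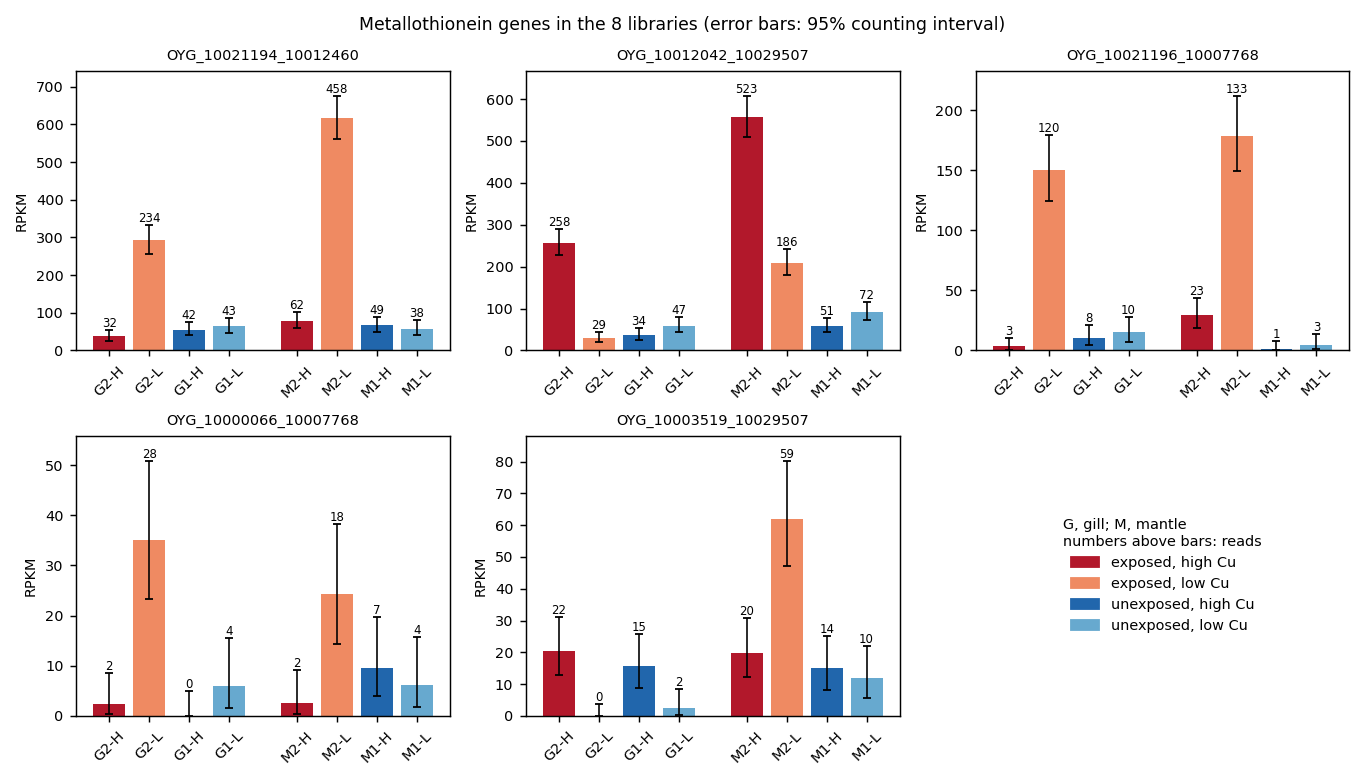
Bars give the RPKM (vertical axis, its own scale in each panel) of each metallothionein gene in the 8 libraries, with 95% Poisson counting intervals as error bars and recovered reads above the bars. OYG_10021194_10012460 peaks at 293 and 616 RPKM in the exposed low-Cu libraries, and OYG_10012042_10029507 at 257 and 557 RPKM in the exposed high-Cu libraries.

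The ratio of these 2 genes inside a library does not depend on its depth. OYG_10012042_10029507 over OYG_10021194_10012460 was 6.75 in G2-H (95% interval 4.66 to 10.1) and 0.104 in G2-L (0.068 to 0.153), against 0.678 in G1-H and 0.915 in G1-L. In mantle it was 7.06 in M2-H (5.42 to 9.34) and 0.34 in M2-L (0.285 to 0.404), against 0.871 in M1-H and 1.59 in M1-L. The exposed libraries lay on both sides of all 4 unexposed ones, high Cu above and low Cu below, in both tissues. These intervals are exact Clopper-Pearson limits of the split of reads and, like all intervals given here, cover counting error only.

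**Figure D3:**
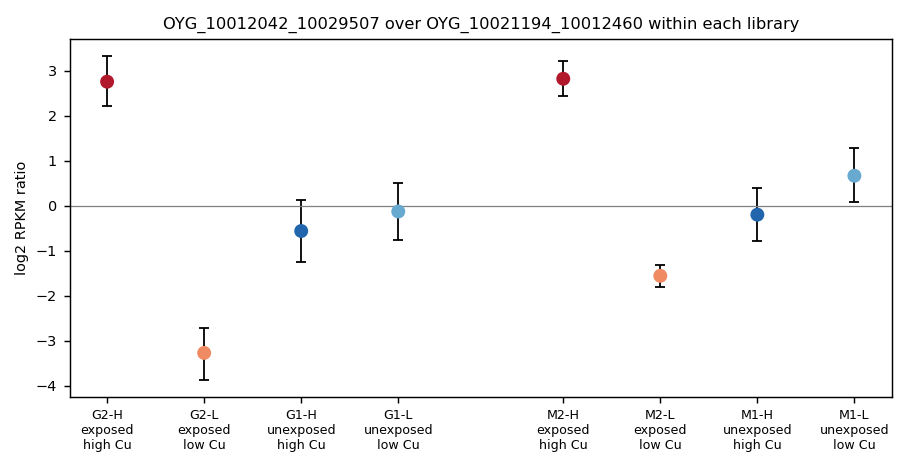
Points give the log2 ratio of RPKM of OYG_10012042_10029507 over OYG_10021194_10012460 (vertical axis) within each of the 8 libraries, with exact 95% intervals of the split of reads. The exposed high-Cu libraries lie at 2.75 and 2.82, the exposed low-Cu libraries at -3.27 and -1.56, and the unexposed libraries between -0.56 and 0.67.

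OYG_10021196_10007768 followed the low-Cu side of this pattern at a lower level. It stood at 3.58 RPKM (3 reads) in G2-H and 150 RPKM (120 reads) in G2-L, against 10.6 RPKM (8 reads) in G1-H and 15.1 RPKM (10 reads) in G1-L. In mantle it stood at 29.3 RPKM (23 reads) in M2-H and 179 RPKM (133 reads) in M2-L, against 1.37 RPKM (1 read) in M1-H and 4.59 RPKM (3 reads) in M1-L. The 2 exposed low-Cu libraries were thus far above the rest and overlapped with each other in their counting intervals.

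The gene was 9.99-fold higher in G2-L than in G1-L, and its log2 ratio of M2-L over M1-L was 5.28 (95% interval 3.70 to 7.58), wide because of the 3 reads in M1-L. It was also called higher in M2-H than in M1-H, with 23 reads against 1 and a log2 ratio of 4.42 (1.79 to 9.78), but not in G2-H over G1-H at -1.57 (-4.12 to 0.49). Within exposed oysters M2-H was 6.11-fold lower than M2-L, and its log2 ratio of G2-H over G2-L was -5.40 (-7.69 to -3.81) with 3 reads against 120. Over the 8 libraries its log2(RPKM + 0.1) went with that of OYG_10021194_10012460 at a Pearson r of 0.861, while OYG_10021194_10012460 and OYG_10012042_10029507 had an r of -0.028. These are descriptions over 8 libraries that share exposure and Cu class.

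OYG_10000066_10007768, which shares the last part of its identifier with OYG_10021196_10007768, was the least abundant member. It stood at 2.38 RPKM (2 reads) in G2-H and 35.1 RPKM (28 reads) in G2-L, against 0 reads in G1-H, which allows up to 3.97 RPKM at 3 reads, and 6.02 RPKM (4 reads) in G1-L. In mantle it stood at 2.55 RPKM (2 reads) in M2-H and 24.2 RPKM (18 reads) in M2-L, against 9.60 RPKM (7 reads) in M1-H and 6.13 RPKM (4 reads) in M1-L. Its highest levels were again those of G2-L and M2-L, although M2-L and M1-H overlapped in their counting intervals.

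Of its exposure ratios only G2-L over G1-L passed the test, 5.83-fold higher (Fisher's exact test, adjusted p = 7.98e-04), and M2-L over M1-L had a log2 ratio of 1.98 (0.38 to 4.005) with an adjusted p of 0.0343 by Fisher's exact test. Within exposed oysters it was called lower in high Cu in both tissues, at a log2 ratio of -3.88 (-7.00 to -1.89) in gills and -3.25 (-6.40 to -1.19) in mantle, each with 2 reads on the high-Cu side. The gene therefore had the same order by Cu class as OYG_10021194_10012460 in exposed oysters, with wide errors.

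OYG_10003519_10029507 shares the last part of its identifier with OYG_10012042_10029507 and fitted neither order. It stood at 20.5 RPKM (22 reads) in G2-H and 0 reads in G2-L, which allows up to 2.94 RPKM at 3 reads, against 15.5 RPKM (15 reads) in G1-H and 2.36 RPKM (2 reads) in G1-L. In mantle it stood at 19.9 RPKM (20 reads) in M2-H and 62.1 RPKM (59 reads) in M2-L, against 15.0 RPKM (14 reads) in M1-H and 11.99 RPKM (10 reads) in M1-L. The tissue and the Cu class crossed: exposed low-Cu oysters had the highest level of all in mantle and no read in gills.

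With G2-L set at the floor of 3 reads, OYG_10003519_10029507 was 6.97-fold higher in G2-H than in G2-L. This fold leaves out the counting error of G2-H, and the exact interval of the log2 ratio had a lower limit of 2.38. The gene was 3.12-fold lower in M2-H than in M2-L. Its only called exposure ratio was M2-L over M1-L, 5.18-fold higher (Fisher's exact test, adjusted p = 2.36e-07). The high-Cu pairs had log2 ratios of 0.40 (-0.61 to 1.45) in gills and 0.41 (-0.65 to 1.505) in mantle.

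Counted over the members, 3 of 5 were called higher in G2-L than in G1-L, beside 5.89% of all genes tested, and 4 of 5 in M2-L than in M1-L, beside 3.94%. In high-Cu oysters 1 of 5 was called higher in G2-H than in G1-H, beside 2.69%, and 2 of 5 in M2-H than in M1-H, beside 3.35%. No member was called lower with exposure in any of the 4 pairs, beside 2.12% (G2-H over G1-H), 4.05% (G2-L over G1-L), 1.95% (M2-H over M1-H) and 8.67% (M2-L over M1-L) of all genes. For the Cu class no member was called in the unexposed pairs, beside 0.853% of genes higher and 1.06% lower in G1-H over G1-L, and 2.07% higher and 1.79% lower in M1-H over M1-L. Between exposed pools all 5 were called in both tissues, 2 higher and 3 lower in G2-H over G2-L, beside 3.3% and 3.76%, and 1 higher and 4 lower in M2-H over M2-L, beside 13.1% and 3.73%. The median log2 ratio of all genes was 0.32 in that last pair, and centring each pair on its median changed no count of member calls.

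**Figure D4:**
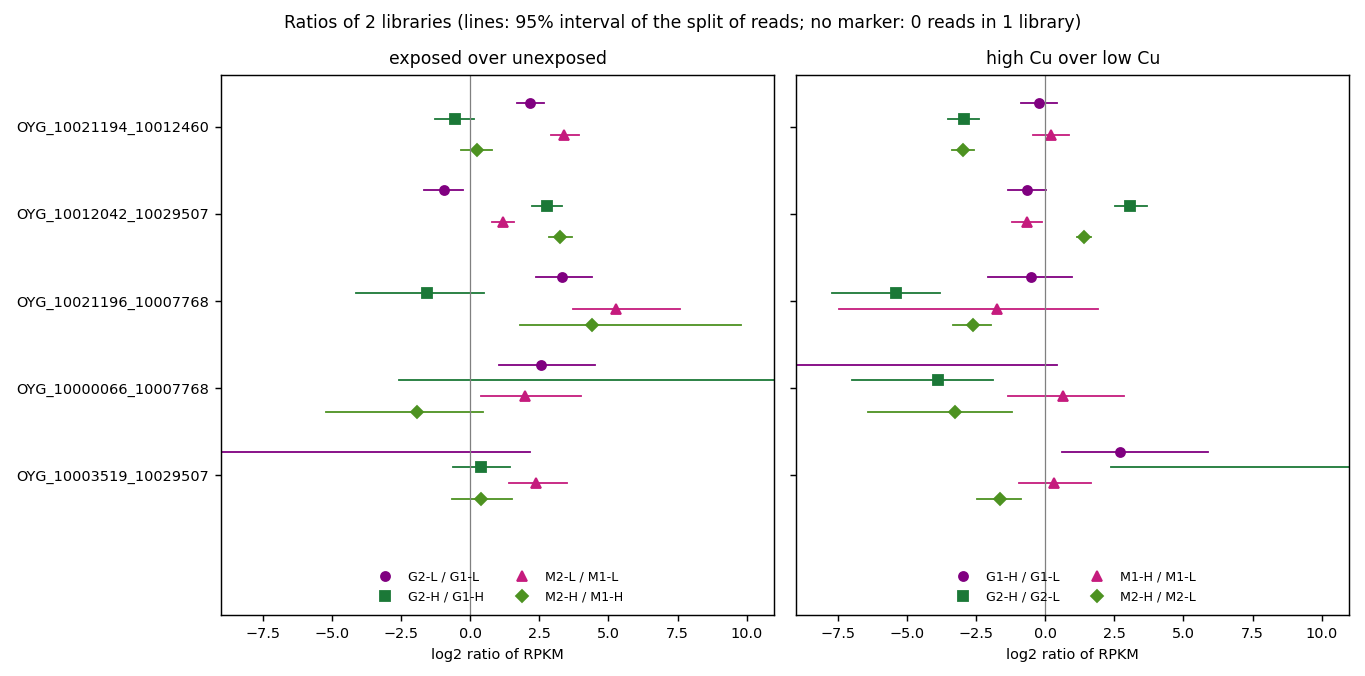
Points give the log2 ratio of RPKM (horizontal axis) of 2 libraries that differ only in exposure (left panel) or only in Cu class (right panel) for each metallothionein gene, with exact 95% intervals. A line without a point marks 0 reads in 1 library, and lines that reach the panel edge have no bound there. OYG_10021194_10012460 lies at -2.94 and -2.96 in the exposed high over low pairs, and OYG_10012042_10029507 at 3.08 and 1.41.

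A ranking of libraries gives the same picture without a test. G2-L and M2-L were the 2 highest libraries for 3 of the 5 members, OYG_10021194_10012460, OYG_10021196_10007768 and OYG_10000066_10007768, and for 3.19% of all 20123 genes tested. For all 3 the lower of the 2 was at least 2-fold above every other library, by 3.72-fold, 5.14-fold and 2.52-fold, which held for 0.412% of all genes. G2-H and M2-H were the 2 highest for OYG_10012042_10029507, by 1.23-fold over M2-L, and for 5.78% of all genes. This ranking was chosen after the values were seen.

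Across all 8 libraries, limma fits with tissue, exposure and Cu class as additive terms use the agreement between pairs as the error. They were on the log2(RPKM + 0.1) scale, where the pseudocount sets the size of any difference against 0 reads. By it OYG_10000066_10007768, with 2 reads in G2-H and 0 in G1-H, had a log2 ratio of 4.63 (Fisher's exact test, adjusted p = 0.746). The fitted differences of OYG_10000066_10007768 and OYG_10003519_10029507, each with no read in 1 library, can be overstated for this reason. No member passed an adjusted p of 0.05 for exposure, Cu class or tissue, beside 0.00497%, 0.0% and 15.7% of all genes, and at an unadjusted p under 0.05 there were 3, 3 and 0 members, beside 12.7%, 10.7% and 29.3%. The exposed minus unexposed difference of OYG_10021196_10007768 was 2.84 (SE 0.95, limma, adjusted p = 0.279), between 2.13 without M1-L and 4.03 without G2-H when 1 library was left out. That of OYG_10012042_10029507 was 1.56 (SE 0.61, limma, adjusted p = 0.343), between 1.03 without M1-H and 2.29 without G2-L. The members' median exposure difference was 1.56 and that of all genes -0.07, and for high minus low Cu the medians were -1.48 and 0.15. The fit has 4 residual degrees of freedom, and limma voom on the recovered reads also called 0 members in each of these 3 comparisons. For exposure and Cu class the fit counts gill and mantle libraries as separate. If both tissues came from the same oysters, its errors do not measure the spread between pools. A fit with the oyster pool as replicate block can estimate tissue terms only.

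The test of whether the exposure difference depends on Cu class called no gene at all by limma (0.0% of genes). At an unadjusted p under 0.05 there were 2 members, beside 5.32% of all genes. OYG_10021194_10012460 had an interaction of -2.95 (SE 0.52, unadjusted p = 7.26e-04, limma adjusted p = 0.908), and OYG_10012042_10029507 one of 2.90 (SE 0.74, unadjusted p = 0.00593, limma adjusted p = 0.908). With 1 library left out they lay between -3.42 (without G1-L) and -2.47 (without M1-L) for OYG_10021194_10012460, and between 1.91 (without G2-L) and 3.89 (without M2-L) for OYG_10012042_10029507. For the other 3 genes it was -2.89 (SE 1.74), -0.86 (SE 2.32) and 1.53 (SE 2.94), in the order OYG_10021196_10007768, OYG_10000066_10007768 and OYG_10003519_10029507. The 2 major genes therefore differed in sign, with standard errors small beside the differences, but neither was past the threshold over all genes. These errors, too, count gill and mantle libraries as separate.

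In the fit with this term no member, and 0.0% of all genes, passed for exposure within a Cu class or for Cu class within exposed or unexposed oysters. OYG_10021194_10012460 was 2.79 higher (log2, SE 0.36, limma adjusted p = 0.105) with exposure in low-Cu oysters, and -0.16 (SE 0.36) was its difference in high-Cu oysters. Its high minus low difference was -2.95 (SE 0.36, limma adjusted p = 0.104) in exposed oysters and -0.01 (SE 0.36) in unexposed ones. OYG_10012042_10029507 had an exposure difference of 3.01 (SE 0.53, limma adjusted p = 0.603) in high-Cu oysters and 0.11 (SE 0.53) in low-Cu ones. The calls on OYG_10021194_10012460 sat near the threshold: limma voom on the recovered reads gave an adjusted p of 0.042 for exposure in low-Cu oysters (36 genes called in all) and 0.0483 for Cu class in exposed oysters (19 genes), and Cu class in exposed oysters reached 0.039 by limma on RPKM without G2-L. Without M2-L the 2 differences were 2.45 and -2.61.

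Gill and mantle differed less clearly. The sum was lower in gill than in the matching mantle library in all 4 pairs, by a mean log2 ratio of -0.69 ± 0.47 (SD, n = 4 pairs). The exposed pairs had log2 ratios of -1.09 in high Cu and -1.10 in low Cu, and the unexposed pairs -0.34 in high Cu and -0.23 in low Cu. No member passed the test of exposure by tissue or of Cu class by tissue, beside 0.0% of all genes for each. OYG_10012042_10029507 was lower in gill in all 4 pairs, with a limma difference of -1.29 (SE 0.61, limma adjusted p = 0.204), which was -0.56 without G2-L and -1.82 without M1-H. No member was called between unexposed gill and mantle libraries, beside 8.14% of genes higher and 5.35% lower in G1-L over M1-L and 7.1% higher and 4.93% lower in G1-H over M1-H. None was higher in gill in the exposed pairs either, beside 9.18% in high Cu and 19.5% in low Cu, and 3 of 5 were lower in G2-L than in M2-L, beside 7.29% of all genes, and 2 of 5 lower in G2-H than in M2-H, beside 5.7%.

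The tissue pairs called OYG_10021194_10012460 2.10-fold lower in G2-L than in M2-L, OYG_10012042_10029507 6.88-fold lower in G2-L than in M2-L and 2.16-fold lower in G2-H than in M2-H. With G2-L set at 3 reads, OYG_10003519_10029507 was 21.1-fold lower in G2-L than in M2-L, 0 reads against 59. The exact interval of its log2 ratio had an upper limit of -4.055. OYG_10021196_10007768 had a log2 ratio of -3.03 (-5.41 to -1.31) for G2-H over M2-H, 3 reads against 23. Gill and mantle libraries also differed in the cell type marker lists: the summed RPKM of the 9 genes of the muscle list was 857 to 1199 in gill and 2081 to 4204 in mantle. The words of this list also took non-muscle myosin heavy chain genes, such as OYG_10008717_10041341, with 257 to 369 RPKM over the libraries of both tissues. The summed RPKM of 60 shell-forming mantle genes was 673 to 840 in gill and 716 to 2226 in mantle, overlapping, and 13 of the 34 that passed the filter were higher in gill. The part of these differences in the metallothionein values was not tested.

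The shell-forming genes also had a higher sum in exposed mantle, with 2226 RPKM in M2-H and 1333 RPKM in M2-L, against 789 RPKM in M1-H and 716 RPKM in M1-L. In gills their sum was 739 RPKM in G2-H and 673 RPKM in G2-L, against 792 RPKM in G1-H and 840 RPKM in G1-L. The genes of the list did not move together. A tyrosinase-like gene (OYG_10011916_10034657) had 543 RPKM in M2-H and 222 RPKM in M2-L, against 16.1 RPKM in M1-H and 11.2 RPKM in M1-L. In gills this gene had 7.35 RPKM in G2-L and 0.212 RPKM in G2-H, against 0 in G1-H and G1-L. Another tyrosinase-like gene (OYG_10026230_10034028) had 7.13 RPKM in G2-L and at most 0.467 RPKM in the other gill libraries. The low gill sum of G2-L thus did not hold for these genes. Chitin synthase 1 (OYG_10010453_10032983) had 121 RPKM in M2-H and 160 RPKM in M2-L, against 180 RPKM in M1-H and 161 RPKM in M1-L. Its gill values were higher, 311 to 426 RPKM. The sum over the list was thus lower in gill than in mantle in the exposed pairs only, and the part of shell-forming cells in the metallothionein values was not tested. The cilia genes had a lower sum in G2-L, 3192 RPKM, than in the other gill libraries, 4387 to 4860 RPKM. The summed RPKM of 22 hemocyte genes was 187 in G2-L and 206 in M2-L, against 229 to 283 in the other 6 libraries, so the low-Cu exposed libraries were lowest for this sum. Single genes of the list did not all follow it. An integrin alpha-4 gene (OYG_10012568_10009072) was lowest in G2-L, at 46.8 RPKM, but had 70.7 RPKM in M2-L, against 71.8 RPKM in M1-L and 58.5 RPKM in M1-H. Another (OYG_10023513_10015673) was lowest in M2-L, at 12.1 RPKM, but had 36.8 RPKM in G2-L, against 17.9 RPKM in G1-L and 28.8 RPKM in G1-H. Whether blood cell content plays a part in the Cu class pattern was not tested.

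Other genes that move or bind metals were read from a list of 37 annotated genes, of which 34 passed the filter. They included zinc transporters (ZnT proteins carry zinc out of the cytosol and ZIP proteins into it), Copper-transporting ATPase 1, which in mammals moves copper out of the cell, the iron store ferritin and the enzymes of glutathione synthesis. None of the 34 was past an adjusted p of 0.05 by limma for exposure or for Cu class. At an unadjusted p under 0.05 there were 8 for exposure, beside 12.7% of all genes, and 5 for Cu class, beside 10.7%. For tissue 4 of 34 were past the adjusted p, 1 higher and 3 lower in gill, beside 15.7% of all genes, so the list held no larger share than the rest. The median exposure difference was 0.12 over the list and -0.07 over all genes. Metal regulatory transcription factor 1 itself ranged only from 18.4 to 27.0 RPKM over the 8 libraries.

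The 4 genes past the tissue test were Zinc transporter ZIP1 (OYG_10012799_10035739), higher in gill by 2.09 (log2, SE 0.41, limma adjusted p = 0.0107), and 3 that were lower in gill. These were Zinc transporter ZIP12 (OYG_10008479_10034801) at -4.42 (SE 0.65, limma adjusted p = 0.00304), Zinc transporter 8 (OYG_10020521_10038543) at -1.06 (SE 0.20, limma adjusted p = 0.00881) and ferritin (OYG_10027591_10009092) at -1.14 (SE 0.29, limma adjusted p = 0.0298). ZIP12 had 0 reads in both unexposed gill libraries, so its fitted size depends on the pseudocount.

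In exposed low-Cu oysters some of these genes peaked in the same libraries as OYG_10021194_10012460. G2-L and M2-L were the 2 highest libraries for 5 of the 34, beside 3.19% of all genes. Zinc transporter 1 (OYG_10019513_10015620), which exports zinc, had 47.1 RPKM in G2-H and 187 RPKM in G2-L, against 69.5 RPKM in G1-H and 56.4 RPKM in G1-L. Its mantle values were 52.9 RPKM in M2-H and 99.4 RPKM in M2-L, against 42.5 RPKM in M1-H and 41.5 RPKM in M1-L. Zinc transporter 1 was thus called higher with exposure in both low-Cu pairs, by 3.30-fold in gill and 2.39-fold in mantle, and in neither high-Cu pair.

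Another was Copper-transporting ATPase 1 (OYG_10013657_10031298), with 15.5 RPKM in G2-H and 35.7 RPKM in G2-L, against 7.69 RPKM in G1-H and 10.01 RPKM in G1-L, and with 12.7 RPKM in M2-H and 28.3 RPKM in M2-L, against 8.25 RPKM in M1-H and 5.15 RPKM in M1-L. A further gene of that name (OYG_10001203_10031298) was 4.04-fold higher in G2-L than in G1-L and 2.46-fold higher in M2-L than in M1-L. Zinc transporter ZIP12 (OYG_10003866_10023342) was 6.97-fold and 7.08-fold higher in these pairs, and Zinc transporter ZIP1 (OYG_10024789_10035740) 3.22-fold and 19.8-fold. Some were called higher in a high-Cu pair too: OYG_10013657_10031298 (186 reads against 83) and this ZIP12 (2.56-fold) in G2-H over G1-H, and OYG_10001203_10031298 (2.09-fold) in M2-H over M1-H. All 5 were picked for this order, so their values are a description.

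G2-H and M2-H were the 2 highest libraries for another 6 list genes other than any metallothionein, beside 5.78% of all genes, with margins of 1.01-fold to 1.45-fold over the next library, beside 1.41-fold to 3.24-fold for the 5 genes highest in G2-L and M2-L. The largest margin of the 6 was that of a glutathione synthetase gene (OYG_10008507_10014047), with 9.69 RPKM in G2-H and 10.6 RPKM in M2-H and at most 6.66 RPKM elsewhere. Zinc transporter ZIP10 (OYG_10005541_10026953) had 37.1 RPKM in G2-H and 53.9 RPKM in M2-H, against 14.3 RPKM in G2-L and 17.0 RPKM in M2-L. Unlike the metallothionein OYG_10012042_10029507, it also had 36.8 RPKM in unexposed M1-L.

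**Figure D5:**
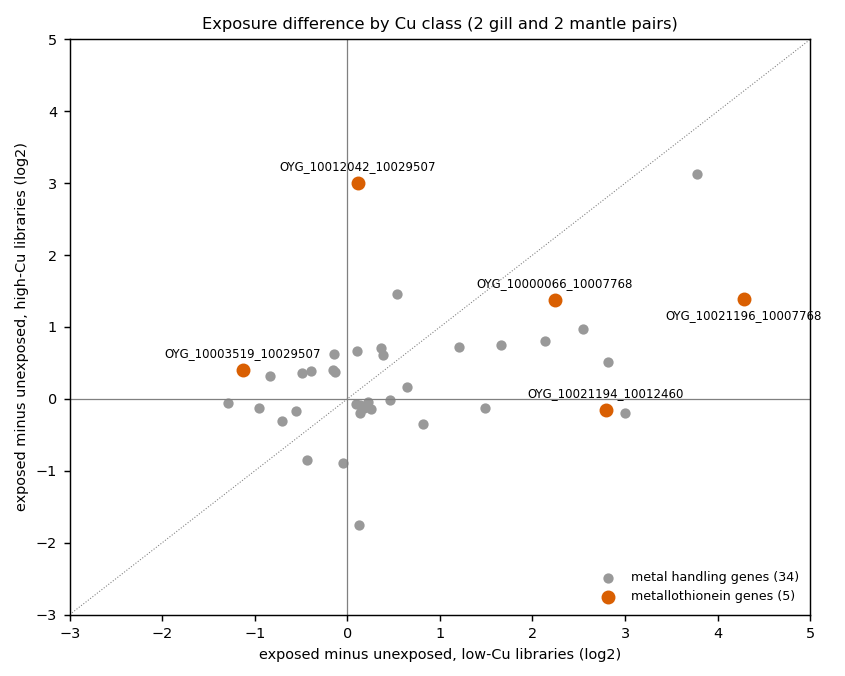
Each point is 1 gene, with its exposed minus unexposed log2 difference in low-Cu libraries (horizontal axis) and in high-Cu libraries (vertical axis), each over 1 gill and 1 mantle pair, for the 5 metallothionein genes (orange) and 34 metal handling genes (grey), and the dotted line marks equal differences. OYG_10021194_10012460 lies at 2.79 and -0.16 and OYG_10012042_10029507 at 0.11 and 3.01, on opposite sides of the dotted line.

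The genes most like each member over the 8 libraries, by Pearson r of log2(RPKM + 0.1) among all genes tested, were of mixed annotation. For OYG_10021194_10012460 they were a C3a anaphylatoxin chemotactic receptor gene, Excitatory amino acid transporter 2 and a hypothetical protein, with r between 0.973 and 0.987. Excitatory amino acid transporter 2, which takes up glutamate, had 13.1 RPKM in G2-H and 61.8 RPKM in G2-L, against 10.6 RPKM in G1-H and 21.8 RPKM in G1-L, and 19.0 RPKM in M2-H and 125 RPKM in M2-L, against 14.5 RPKM in M1-H and 14.9 RPKM in M1-L. The ranking was over 20122 genes and 8 libraries and is a description.

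For OYG_10012042_10029507 the nearest were Minor histocompatibility antigen H13 (r = 0.961), a Dolichyl-diphosphooligosaccharide--protein glycosyltransferase subunit (r = 0.944) and INO80 complex subunit C (r = 0.938). Their ranges were narrower than that of the metallothionein: Minor histocompatibility antigen H13 had 23.3 RPKM in G2-H and 31.2 RPKM in M2-H, and between 17.0 and 23.2 RPKM elsewhere. For OYG_10021196_10007768 the nearest was Cytosolic Fe-S cluster assembly factor narfl (r = 0.954), for OYG_10000066_10007768 a hypothetical protein (r = 0.977), and for OYG_10003519_10029507 DNA-directed RNA polymerase I subunit RPA49 (r = 0.987). The gene nearest to the summed level was Heat shock protein 70 B2 (r = 0.976), a stress chaperone, with 2.43 RPKM in G2-H and 2.77 RPKM in G2-L, against 0.901 RPKM in G1-H and 1.28 RPKM in G1-L. In mantle it had 5.41 RPKM in M2-H and 5.03 RPKM in M2-L, against 1.17 RPKM in M1-H and 1.30 RPKM in M1-L. Its values were thus higher in the exposed libraries, but the gene was picked as nearest to a sum that separates the same groups. Its level was low, and no counting interval was computed for it.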

How the data were processed

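RNA of 6 oysters was pooled for each of the 8 libraries. The labels give tissue and Cu class, and the study's methods give exposure, dose, days, age and pool size. The authors filtered the reads with Perl scripts, mapped them to the *C. gigas* genome with tophat2 at 1 mismatch at most, and deposited RPKM values, with a dash for no reads. Cufflinks is also named in the submitters' processing notes, and versions are not given in the sources used here. Reads were recovered as whole multiples within 0.0005 reads. In a sample of 2519 genes with any length allowed, 99.802% had lengths that were multiples of 3.

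Log2(RPKM + 0.1) of the 20123 genes with a mean of at least 1 RPKM was fitted with limma 3.58.1 (R 4.3.3), with tissue, exposure and Cu class as additive terms and 1 interaction at a time, with Benjamini-Hochberg adjustment over all genes tested. The 12 pairs of libraries that differ in 1 factor were compared on recovered reads with Fisher's exact test (two-sided, adjusted p of at most 0.001 and 2-fold). A fold against 0 reads sets that library at 3 reads and leaves out the counting error of the other library. Alternatives were other pseudocounts, filters and scalings, no trend, voom on the reads, a replicate block, and each library or member left out. The steps were tested on simulated data. Other steps ran in Python 3.11.15 (scipy 1.17.1, numpy 2.4.6, pandas 2.3.3), and plots were drawn with matplotlib 3.10.9.

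The members and lists were chosen with earlier results of these data known. Named genes are the members, the 3 genes nearest to each and the 5 nearest to the sum, and the metal handling genes past the tissue, exposure or Cu class test, and others were chosen after their values were seen. After the annotation was seen, marker words were matched as whole words and ATOX at the start of a word, because the plain letters also took anaphylatoxin, equinatoxin and other unrelated annotations. The study's methods pool gills or mantles by their own Cu, while its results have both tissues from the same oysters, so the gill and mantle libraries of 1 pool may or may not share animals. Deviations of gill and mantle libraries of the same pool correlated at 0.126, 0.092, 0.177 and 0.252, so not every pair was over 0.1. Those of different pools lay between -0.203 (G2-H with M2-L) and 0.126 (G1-H with M1-L), which overlaps the values of matching pools. No gene ID (0 of 25647) matched the RefSeq gene table, so no coordinates or sequences are given.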

Additional observations from a re-analysis of the deposited data

Results flagged for a closer look

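The difference between high-Cu and low-Cu oysters in OYG_10012042_10029507 went in opposite directions with and without exposure. Both exposed pairs were higher in high Cu, by log2 ratios of 3.08 in gills and 1.41 in mantle, and both unexposed pairs were lower, by -0.65 and -0.66. The difference of these differences was 2.90 (SE 0.74), and limma gave it an adjusted p of 0.908 over all genes, so it did not pass the test. No condition has 4 libraries, so no library was tested as standing apart within a group.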

How the results depend on the processing

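Over 10 limma contrasts, 762 of 815 alternative values of single members kept their direction and their side of the threshold, 50 changed direction and 3 passed the threshold. The number of members called changed in 3 of 163 alternatives, and the cause was not tested: limma voom called 1 member for exposure in low-Cu oysters and 1 for Cu class in exposed oysters, each OYG_10021194_10012460 at 2.80 and -2.93, and Cu class in exposed oysters called 0 to 1 over the fits that left out 1 library. The oyster pool as replicate block called 0 members for tissue and for both interactions with tissue and changed no call, and gave OYG_10012042_10029507 the same tissue difference of -1.29. Other settings turned differences round, among them OYG_10003519_10029507 for exposure by Cu class (1.53, SE 2.94) and exposure in low Cu (-1.13, SE 2.08) and OYG_10000066_10007768 for exposure in high Cu (1.38, SE 1.64). Under voom these were OYG_10021196_10007768 for tissue (-0.36), OYG_10003519_10029507 for exposure (0.59), exposure in low Cu (0.92) and exposure by Cu class (-0.49), OYG_10000066_10007768, exposure in high-Cu (-0.0185), and OYG_10021194_10012460, Cu class in unexposed (0.0086). A pseudocount of 1 turned OYG_10003519_10029507 for exposure (0.32) and for exposure in low Cu (0.27), a pseudocount of 0.01 turned OYG_10000066_10007768 for exposure by Cu class (0.74), and quantile normalization turned OYG_10012042_10029507 for exposure in low Cu (-0.16). The log2 ratio of the summed metallothionein RPKM, high over low Cu, was -0.0159 without OYG_10021194_10012460 and -1.39 without OYG_10012042_10029507, against -0.46 with all 5. At a log2 ratio of 2, chosen after seeing the data, 3 in place of 5 member calls were lower in gill than in mantle, and centring each pair on its median changed no count of member calls.

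Leaving out 1 library at a time gave these ranges where a direction or call changed. For OYG_10021194_10012460 they were -2.12 to 0.12 for exposure by tissue, -1.59 to 1.19 for Cu class by tissue, -0.48 to 0.17 for exposure in high Cu, -3.29 to -2.61 for Cu class in exposed and -0.48 to 0.47 for Cu class in unexposed oysters. For OYG_10012042_10029507 they were -2.83 to 0.21 for exposure by tissue, -0.84 to 2.51 for Cu class by tissue and -0.88 to 1.103 for exposure in low Cu. For OYG_10021196_10007768 they were -0.67 to 1.52 for tissue, -3.71 to 2.13 for Cu class by tissue, -0.83 to 3.61 for exposure in high Cu and -2.78 to 0.60 for Cu class in unexposed oysters. For OYG_10000066_10007768 they were -4.23 to 2.51 for exposure by Cu class, -1.99 to 4.75 for exposure in high Cu and -6.02 to 0.72 for Cu class in unexposed oysters. For OYG_10003519_10029507 they were -1.77 to 1.43 for exposure, -2.74 to 5.80 for exposure by Cu class, -7.11 to 0.12 for exposure by tissue, -1.55 to 2.35 for exposure in high Cu, -5.40 to 3.15 for exposure in low Cu, -1.25 to 7.30 for Cu class in exposed and -0.45 to 3.44 for Cu class in unexposed oysters. The interaction of exposure with Cu class kept its sign for both major genes in every one of these fits, with the sizes given beside the result. Depth limits OYG_10000066_10007768 and OYG_10003519_10029507, which had no read in 1 library each.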
